A study of Oryza sativa Indica Group with 18 samples.

Results

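Transcript levels of Annapurna rice seedlings taken after a step to 42 °C were compared with those taken after 1 h at 37 °C. The 6 arrays titled for these Annapurna treatments, 3 at 42 °C and 3 at 37 °C, were chosen by title from the 18 arrays of the series. All seedlings were 7 days old, were grown in nutrient solution in the light at a humidity of about 40%, and were taken whole, so each array held root and shoot RNA together. The 42 °C seedlings had 1 h at 37 °C and then 2 h at 42 °C, so they were taken after 3 h of heat. The 37 °C seedlings were taken after 1 h at 37 °C. The control seedlings stood at 28 °C for 3 h. The cultivar IR64 had the same 3 treatments, and each of the 6 groups had 3 arrays that the labels call biological replicates. By its title the series contrasts tolerance and susceptibility to heat, but the labels do not say which cultivar has which, so both go by name here. The 2 groups compared differ in temperature and in time, and these cannot be told apart. In RNA from whole seedlings, fewer cells of a type and less RNA per cell cannot be told apart either.

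In plants, as in other organisms, heat unfolds proteins, and heat stress transcription factors then switch on genes for chaperones. Small heat shock proteins hold unfolding proteins, HSP100 proteins such as CLPB1 pull aggregates apart, and HSP90 and HSP70 proteins refold clients. Class A factors such as the HSFA2 group activate these genes, while class B factors lack the activating domain and often act as repressors.

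Correlations across probe sets were 0.9986 to 0.9991 between arrays of 1 group and 0.981 to 0.9817 between the groups, and genes are not independent replicates. Array medians of all 18 arrays lay within 0.0372 on the log2 scale, and 34.85 to 35.2% of probe sets exceeded an intensity of 50 on the arrays used here. Actin probes at the 3′ end exceeded those at the 5′ end by log2 values of 5.10 to 5.34 at 42 °C and 5.18 to 5.39 at 37 °C. The GAPDH probes did not share this gap, with log2 values of 0.016 to 0.0191 at 42 °C and 0.0168 to 0.0224 at 37 °C. The 18S ribosomal RNA signal was 75.2 to 136.7 at 42 °C and 71.9 to 332 at 37 °C on 1 probe set. On another it was 137 to 326 at 42 °C and 139 to 569 at 37 °C. The 25S signal was 9.42 to 15.3 at 42 °C and 23.5 to 51.6 at 37 °C. The added hybridization control creX read 35936 to 41020 at 42 °C and 42736 to 50496 at 37 °C. Marker genes of the shoot summed to 204508 to 217238 at 42 °C and 207387 to 218914 at 37 °C, and root markers such as the silicon transporter gene Lsi1 were also well above the foot of the scale. The part of the ribosomal RNA and creX differences in the results was not tested.

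A gene is said to have risen or fallen where its limma adjusted p was under 0.05 and the difference was at least 2-fold. Differences are log2 values of 42 °C minus 37 °C ± SE after adding 16 to each intensity, and intensities are as deposited. Of 17905 genes measured, 493 rose (2.75%) and 1144 fell (6.39%), and the median difference was 0.0094. Over probe sets, 803 of 57258 rose (1.4%) and 1769 fell (3.09%). The falls were also larger: 32 genes fell by at least 4 log2 units and 1 gene rose by as much. With 64 in place of 16 added, 475 probe sets rose and 1299 fell. At any size of difference, 8037 probe sets had higher and 6424 had lower values with an adjusted p under 0.05, so falls outnumber rises only with the fold threshold.

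The largest fall of all was in the heat stress transcription factor gene HSFA2A, an activator that keeps the heat response going. It read 18.8, 23.0 and 15.6 on the 42 °C arrays, against 6854, 7130 and 7389 on the 37 °C arrays, a difference of -7.67 ± 0.086 (adjusted p = 3.0e-16). The groups lie far apart, and the 42 °C arrays were near the 28 °C controls, which read 42.2, 37.3 and 34.5, with -0.62 ± 0.086 against control. Because the 42 °C level is near the foot of the scale, the size depends on the amount added, and it was -8.48 with 1 added and -6.43 with 64. HSFA2C, of the same subgroup, read 141, 138 and 211 on the 42 °C arrays, against 3474, 3419 and 3571 on the 37 °C arrays (-4.31 ± 0.16, adjusted p = 5.4e-11). Its locus also carries the name of another gene, ARD1, and its second probe set fell as well, by 1.95 on the log2 scale. HSFA2A also fell on both of its further probe sets, by 4.99 and by 6.09.

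Of the 20 heat stress transcription factors measured, 9 fell and 0 rose, with a median of -0.93, where 6.39% of all genes fell. The class B genes HSFB2A, HSFB2B and HSFB2C all fell. HSFB2B read 17.4, 12.1 and 9.34 on the 42 °C arrays, against 445, 527 and 504 on the 37 °C arrays (-4.14 ± 0.11), and its second probe set, at about 6 in both groups, was not called. HSFB2A read 171, 160.4 and 153 on the 42 °C arrays, against 2949, 2675 and 2641 on the 37 °C arrays (-3.96 ± 0.099, adjusted p = 7.4e-13), and here the 42 °C arrays also lay below the controls, at 1375, 1390 and 1153. HSFB2C read 857, 914 and 903 on the 42 °C arrays, against 3892, 3553 and 3832 on the 37 °C arrays (-2.06 ± 0.10) with controls at 14.3, 14.2 and 14.4. Its 2 further probe sets fell by 2.56 each but disagreed on the level against control, averaging 343 and 125 at 42 °C, and 562 and 57.1 in controls, neither called. HSFA6B, HSFC2A and HSFB1 fell by 2.37, 2.06 and 1.07. HSFA2B fell by 1.03, but stood at -0.98 without the first 42 °C array, at -0.97 without the second 37 °C array and at -0.61 with 64 added, each below the fold threshold. HSFA2E was at -0.71 ± 0.067, and HSFA1, of the group that starts the response in tomato and Arabidopsis, at -0.083 ± 0.10, neither called. HSFA2D, the brightest uncalled factor, read 5634, 5771 and 5896 on the 42 °C arrays, against 4089, 3860 and 4126 on the 37 °C arrays (0.52 ± 0.11, not called). Its probe sets disagreed, since the other one averaged 127 at 42 °C and 507 at 37 °C and fell by 1.88, and its locus also carries the name ARD2.

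Of 19 small heat shock protein genes 13 fell and 0 rose, with a median of -2.28. For 17 of the 19 all 42 °C arrays lay below all 37 °C arrays, as they did for 28.5% of all genes. HSP18.6 read 604, 572 and 573 on the 42 °C arrays, against 18856, 19566 and 18709 on the 37 °C arrays (-4.99 ± 0.13, adjusted p = 8.8e-13). HSP16.9B read 360.2, 305 and 302 on the 42 °C arrays, against 10908, 10493 and 10409 on the 37 °C arrays (-4.98 ± 0.076). HSP17.8 read 18.04, 17.95 and 18.06 on the 42 °C arrays, against 851, 755 and 802 on the 37 °C arrays (-4.59 ± 0.084). In these 3 genes no array of a group came near the other group. HSP17.8 stood near its controls, which read 15.1, 17.3 and 16.5, while HSP16.9B was still above its controls at 40.7, 48.0 and 45.0. HSP17.7 fell by 4.05, HSP21.9 by 3.46, HSP26.2 by 2.84, HSP16.0 by 2.56 and HSP18.1 by 2.04.

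Other members stayed bright in spite of their fall. HSP18.0 read 3956, 4100 and 4764 on the 42 °C arrays, against 27318, 28248 and 28963 on the 37 °C arrays (-2.72 ± 0.084). Its controls read 61.4, 51.3 and 45.5, and 2 further probe sets at -0.35 and 0.19 were not called. HSP26.7, a chloroplast form, read 1377, 1455 and 1525 on the 42 °C arrays, against 7773, 7958 and 7876 on the 37 °C arrays (-2.43 ± 0.049), while its controls read 6.93, 6.52 and 6.23. HSP17.4 averaged 6165 at 42 °C, against 30058 at 37 °C (-2.28 ± 0.066), HSP24.1 10760 at 42 °C, against 40992 at 37 °C (-1.93 ± 0.086) and HSP23.2 2275 at 42 °C, against 10860 at 37 °C (-2.25 ± 0.073). The other 6 members were not called. HSP16.9A read 10353, 9907 and 9338 on the 42 °C arrays, against 10373, 10997 and 10555 on the 37 °C arrays (-0.11 ± 0.092, adjusted p = 0.53), with controls at 139, 123 and 184. The 42 °C arrays lay just below the 37 °C arrays, within the error of the fit, and both groups were far above the controls. The gene hsp17.9 read 13338, 13178 and 14757 on the 42 °C arrays, against 19820, 22841 and 21376 on the 37 °C arrays (-0.63 ± 0.11), a difference beyond the replicate spread but short of 2-fold. HSP18.8, HSP17.9B, HSP22.3 and HSP16.6 stood at 0.15, -0.07, -0.64 and -0.95. The locus called HSP16.9A also carries the name HSP16.9B, and small heat shock protein genes of 1 class are near-identical in sequence, so signal shared between such copies cannot be told apart here.

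**Figure D1:**
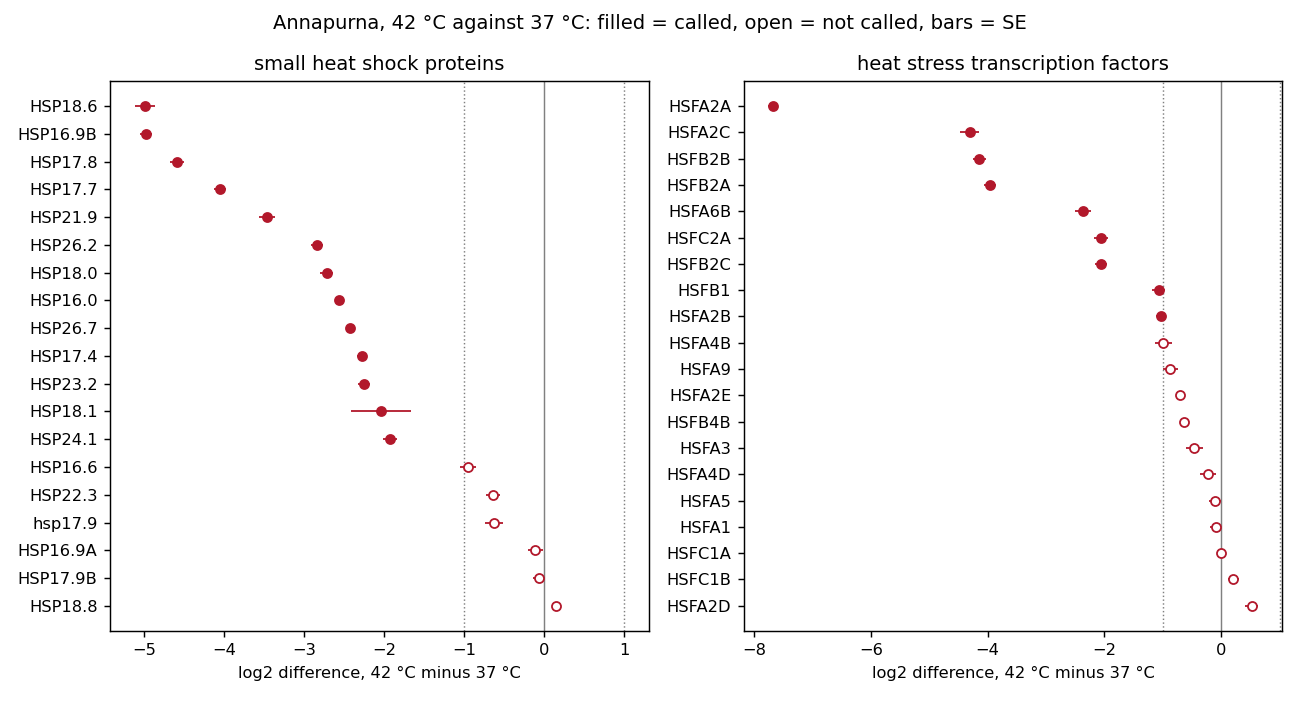
Log2 difference of 42 °C minus 37 °C in Annapurna (x axis, bars are SE, n = 3 arrays a group) for the 19 small heat shock protein genes and the 20 heat stress transcription factor genes (y axis). Filled points were called and open points were not; dotted lines mark 2-fold, and every called point lies on the left, down to -7.67 for HSFA2A.

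CLPB1, the cytosolic disaggregase also known as HSP101, read 306, 308 and 324 on the 42 °C arrays, against 8216, 8525 and 8997 on the 37 °C arrays (-4.71 ± 0.083, adjusted p = 2.6e-14). CLPB-M, the mitochondrial form, read 74.1, 70.1 and 72.4 on the 42 °C arrays, against 2205, 2247 and 2134 on the 37 °C arrays (-4.65 ± 0.099). Both were far below the 37 °C arrays and within 2-fold of the control arrays, with CLPB1 at 0.56 ± 0.083 and CLPB-M at -0.92 ± 0.099 against control, neither called. The plastid form CLPB-C fell by 1.65 and CLPD1, a plastid Clp chaperone, by 3.19. In all, 4 of the 8 HSP100 and Clp genes fell and 0 rose (median -1.02), and CLPC1, the housekeeping plastid chaperone, read 16190, 15848 and 16192 on the 42 °C arrays, against 16032, 15888 and 16136 on the 37 °C arrays (0.0052 ± 0.034, not called). Of 3 HSP90 genes 0 were called. HSP81-1 read 20186, 19317 and 18109 on the 42 °C arrays, against 32514, 33230 and 32568 on the 37 °C arrays (-0.77 ± 0.049, adjusted p = 1.4e-08), apart from the 37 °C arrays but by less than 2-fold. HSP81-3 stood at -0.39 ± 0.047, while 1 of its further probe sets fell by 1.33.

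Of 33 genes for protein folding in the endoplasmic reticulum (ER) 8 fell and 0 rose (median -0.20). The DnaJ co-chaperone gene DJC27 read 426, 436 and 464 on the 42 °C arrays, against 5451, 5332 and 5033 on the 37 °C arrays (-3.53 ± 0.058), and DJB6 fell by 1.62, the only calls among 5 DnaJ genes. BZIP50, whose transcript is spliced by IRE1 under ER stress, read 384, 449 and 441 on the 42 °C arrays, against 1874, 1874 and 1736 on the 37 °C arrays (-2.07 ± 0.093), and BZIP60 read 405, 394 and 409.6 on the 42 °C arrays, against 1549, 1593 and 1728 on the 37 °C arrays (-1.97 ± 0.088). IRE1 itself fell by 1.12. Of the HSP70-type ER chaperones, BIP1 read 9854, 10008 and 10771 on the 42 °C arrays, against 17367, 20127 and 17380 on the 37 °C arrays (-0.84 ± 0.058, not called), and BIP4 read 7.09, 7.09 and 7.17 on the 42 °C arrays, against 53.0, 53.1 and 29.3 on the 37 °C arrays (-1.38 ± 0.14), a fall from a dim level that was -0.61 and not called with 64 added. CRO1 stood at -0.25 ± 0.049. The protein disulfide isomerase gene OsPDIL2-3 fell by 1.54 and DER1, of ER-associated degradation, by 1.78.

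**Figure D2:**
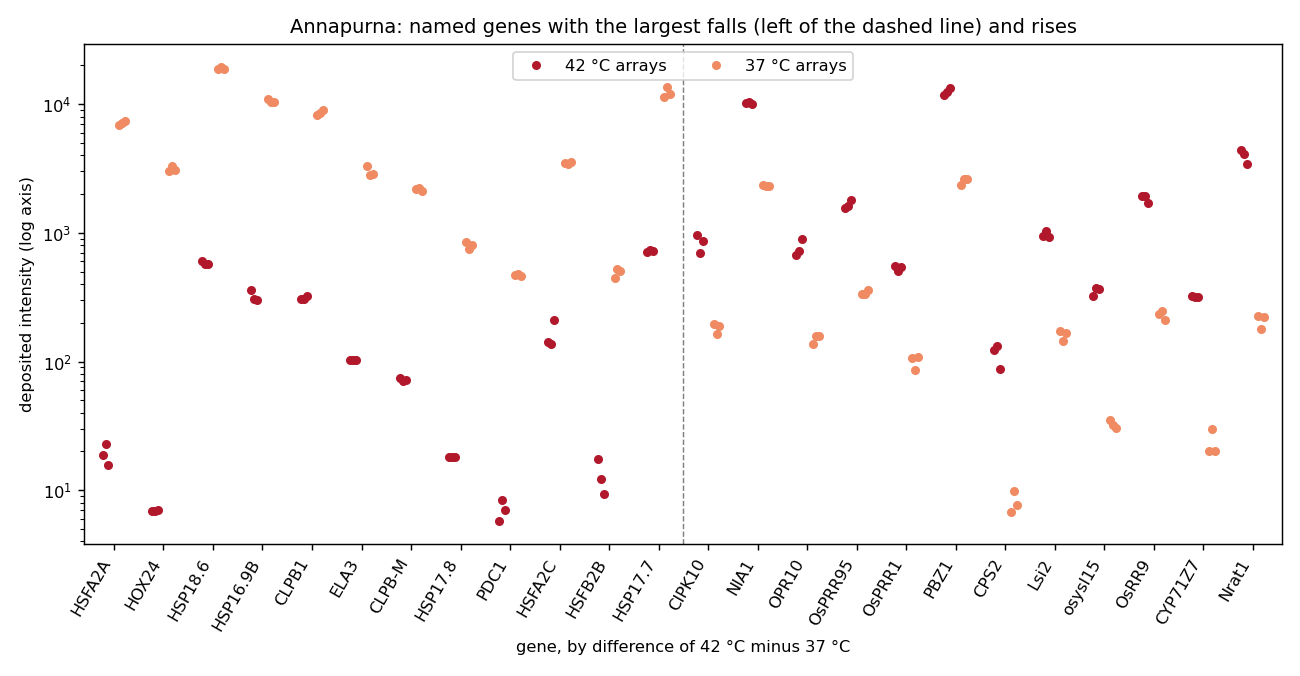
Deposited intensity (log axis) on each of the 3 arrays at 42 °C and the 3 at 37 °C in Annapurna, for the 12 named genes with the largest falls and the 12 with the largest rises (x axis). Groups do not overlap, which the choice of these genes required; HSFA2A lies at 15.6 to 23.0 at 42 °C and 6854 to 7389 at 37 °C, and Nrat1 at 3410 to 4446 at 42 °C and 180 to 224 at 37 °C.

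LEA proteins and dehydrins shield proteins and membranes in cells that lose water, and of their 9 genes 7 fell and 0 rose (median -1.96). RAB16B, a dehydrin gene, read 759, 806 and 828 on the 42 °C arrays, against 11669, 12338 and 11965 on the 37 °C arrays (-3.88 ± 0.082, adjusted p = 1.5e-13). The dehydrin gene Dhn1 read 1689, 1559 and 1637 on the 42 °C arrays, against 13308, 12476 and 13050 on the 37 °C arrays (-2.98 ± 0.053), and rab25 read 14.7, 15.1 and 11.4 on the 42 °C arrays, against 280.1, 320.4 and 308 on the 37 °C arrays (-3.42 ± 0.12). Neither group overlapped the other for these 3 genes, and 2 further probe sets of Dhn1, near 4 and 8, were not called. OsPM19L1 fell by 2.36, LEA19 by 1.96 and EM by 1.93. RAB16C fell by 1.71. RAB21 read 7128, 6845 and 6143 on the 42 °C arrays, against 10935, 9751 and 9820 on the 37 °C arrays (-0.60 ± 0.15, not called), although its other probe set fell by 1.18, and RAB16D was at -0.066 ± 0.17. The homeobox gene HOX24, known to respond to drought, read 6.93, 6.91 and 6.96 on the 42 °C arrays, against 3032, 3281 and 3088 on the 37 °C arrays (-7.10 ± 0.066). It fell to the foot of the scale on all 42 °C arrays, and the size was -8.63 with 1 added and -5.49 with 64.

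Of 57 genes for protein phosphatases 2C and for receptors of the water-deficit hormone abscisic acid (ABA), 8 fell, 1 rose and 48 were not called (median -0.13). Over all genes 6.39% fell and 2.75% rose. The phosphatases of clade A hold ABA signalling down, and their genes are themselves known to be raised by ABA. PP2C68 read 24.0, 25.3 and 21.0 on the 42 °C arrays, against 640.5, 642 and 561 on the 37 °C arrays (-4.00 ± 0.16). PP2C30 read 146, 149 and 159.6 on the 42 °C arrays, against 2363, 2612 and 2465 on the 37 °C arrays (-3.90 ± 0.13). OsPP2C59 read 42.4, 34.2 and 37.8 on the 42 °C arrays, against 669.8, 643 and 651 on the 37 °C arrays (-3.63 ± 0.084). The only gene of this list to rise was the receptor gene OsPYL11, which read 1332, 1385 and 1665 on the 42 °C arrays, against 520, 576 and 516 on the 37 °C arrays (1.41 ± 0.073). BIPP2C1, the brightest, was at -0.0041 ± 0.041, but its other probe set averaged 551 at 42 °C, against 1066 at 37 °C (-0.93 ± 0.067, not called). Other large falls in sugar and water genes were in OsSWEET15, a sucrose exporter (46.1, 37.5 and 39.7 at 42 °C, against 775, 797 and 768 at 37 °C; -3.80 ± 0.12), in the raffinose synthase gene RFS (-2.90 ± 0.065) and in the aquaporin genes OsPIP2;4 (-2.59 ± 0.091) and OsTIP1 (-1.84 ± 0.089). OsPIP2;7, another aquaporin, rose (5186, 5063 and 4162 at 42 °C, against 2126, 1848 and 1884 at 37 °C; 1.29 ± 0.097). Of 12 SWEET genes 3 fell and 0 rose, of which OsSWEET2b, at -1.04, stood at -0.93 without replicate 3 at 42 °C and lost its call without replicate 1 at 37 °C. Likewise of 25 aquaporins 4 fell and 2 rose.

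Further falls of over 3 log2 units in named genes were those of ELA3, an early nodulin-like gene (104, 102 and 102 at 42 °C, against 3282, 2829 and 2851 at 37 °C; -4.66 ± 0.15), of PDC1 (5.73, 8.45 and 7.00 at 42 °C, against 471, 482 and 463 at 37 °C; -4.40 ± 0.073) and of FTSH6, a plastid protease gene in Arabidopsis (16.4, 17.85 and 17.1 at 42 °C, against 436, 391 and 330 at 37 °C; -3.59 ± 0.095). FTSH6 was the only one of 9 FTSH genes to be called. The largest falls among genes with only a locus number were in LOC4331521, which read 22.6, 38.6 and 39.9 on the 42 °C arrays, against 3695, 4122 and 3722 on the 37 °C arrays (-6.30 ± 0.11), and LOC4343997, which read 24.4, 13.3 and 18.6 on the 42 °C arrays, against 1398, 1034 and 1221 on the 37 °C arrays (-5.15 ± 0.16, with -4.83 on its other probe set). Their products are not named in the annotation.

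Falls also outnumbered rises in several lists of signalling genes, as they did over all genes, of which 6.39% fell and 2.75% rose. Of 44 CIPK and calcium-dependent kinase genes 7 fell and 1 rose, with CIPK5 at -2.92 ± 0.079 and the rise in CIPK10, which read 969, 692 and 862 on the 42 °C arrays, against 195, 164 and 189.7 on the 37 °C arrays (2.10 ± 0.13) and rose on its 3 further probe sets too. Of 26 calmodulin and CML genes, which sense calcium, 6 fell and 0 rose, with CML15 at -1.74 ± 0.12. The single WRKY factor to be called of 6 was OsWRKY71, which read 376, 342 and 425 on the 42 °C arrays, against 2079, 1974 and 1919 on the 37 °C arrays (-2.34 ± 0.097). The cold-response factor genes DREB1A (-2.18 ± 0.13) and DREB1G (-2.01 ± 0.21) fell further from a level already below control, and DREB2A, of the heat and drought branch, fell by 1.59, with DREB2B at 0.27 ± 0.10 and not called. DREB1B was at -1.10 ± 0.13, a fall that lost its call with 64 added, at -0.65. Of 8 NAC factor genes 3 fell and 0 rose, with NAC068 at -2.17 and NAC45 at -1.09, the second -0.76 with 64 added. Of 40 thioredoxin and glutaredoxin genes 6 fell and 0 rose, with OsNrx2 at -2.21 ± 0.083.

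Jasmonate genes moved both ways. Of 37, 7 fell and 3 rose (median -0.38), where 6.39% of all genes fell and 2.75% rose. The rise of AOS4 by 1.19 was 0.49 with 64 added. JAZ13, of the repressors of jasmonate signalling, read 40.3, 61.2 and 40.0 on the 42 °C arrays, against 348, 335 and 267 on the 37 °C arrays (-2.41 ± 0.16), and AOS3, an allene oxide synthase gene of jasmonate synthesis, read 35.4, 41.7 and 34.3 on the 42 °C arrays, against 303, 197 and 281 on the 37 °C arrays (-2.36 ± 0.16). OPR10, a 12-oxophytodienoate reductase gene, went the other way and read 667, 722 and 896 on the 42 °C arrays, against 137, 157 and 157 on the 37 °C arrays (2.22 ± 0.095), and OPR5 rose by 1.16. The brightest jasmonate gene not called was JAZ7 at -0.38 ± 0.06.

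Clock genes also parted. CCA1, which is expressed in the morning, read 499, 479.7 and 534 on the 42 °C arrays, against 6414, 6578 and 6834 on the 37 °C arrays (-3.67 ± 0.059, adjusted p = 1.1e-14), while its second probe set, at about 6, was not called. OsPRR95 read 1571, 1618 and 1790 on the 42 °C arrays, against 333, 336 and 360.1 on the 37 °C arrays (2.22 ± 0.094), and OsPRR1, the evening gene also called TOC1, read 554, 507 and 547 on the 42 °C arrays, against 106, 86.4 and 108 on the 37 °C arrays (2.25 ± 0.088). GI (0.48 ± 0.053), OsPRR37 (-0.60 ± 0.074) and OsPRR73 (-0.09 ± 0.039) were not called, so 2 of 8 clock genes rose and 1 fell. The 42 °C seedlings were taken 2 h later in their treatment than the 37 °C seedlings, and the sources used here give no time of day for a harvest.

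**Figure D3:**
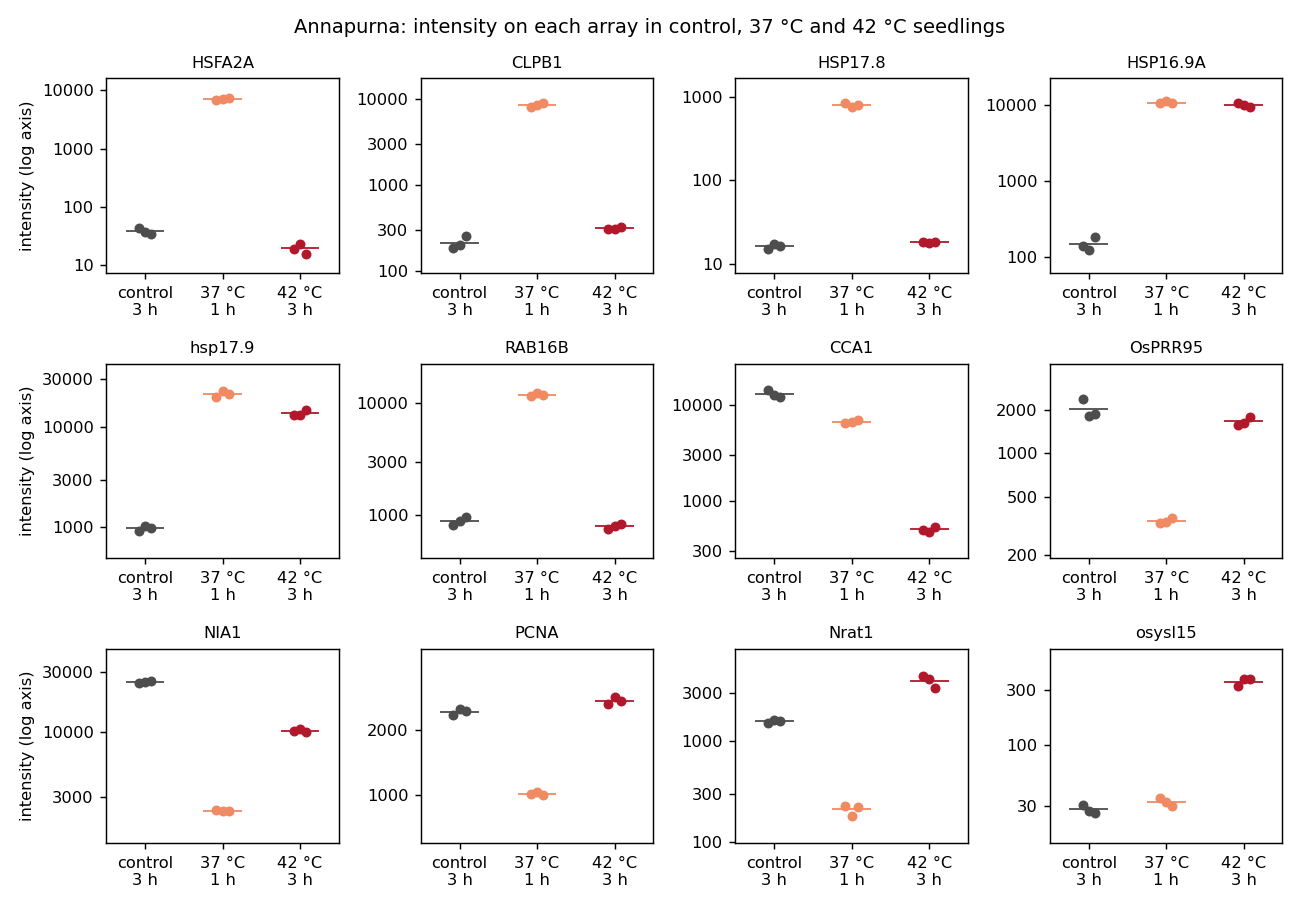
Deposited intensity (log axis; points are arrays, lines are means) of 12 genes in Annapurna control, 37 °C and 42 °C seedlings (x axis, with hours since the start). HSFA2A, CLPB1, HSP17.8 and RAB16B are high at 37 °C alone, HSP16.9A and hsp17.9 are high in both heat groups, and osysl15 is high at 42 °C alone.

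Rises were fewer and smaller. By count, the lists with the most risers were metal transport (10 of 53), cell division (8 of 106) and cellulose and lignin synthesis (7 of 53). Of all genes 2.75% rose. Some smaller lists had a larger share of risers than cell division, such as expansins and XTH (6 of 30) and clock genes (2 of 8). The largest rise was in Nrat1, an aluminium transporter gene of roots, which read 4446, 4122 and 3410 on the 42 °C arrays, against 224, 180 and 223 on the 37 °C arrays (4.15 ± 0.089, adjusted p = 1.7e-13). No array overlapped, and the 42 °C arrays also exceeded the controls, at 1527, 1643 and 1590. The gene osysl15, for the uptake of iron bound to phytosiderophores, read 321, 371 and 369 on the 42 °C arrays, against 35.0, 32.4 and 30.3 on the 37 °C arrays (2.93 ± 0.089), and 30.9, 27.6 and 26.3 in controls. OsZIP1, a zinc transporter gene, read 537, 633 and 524 on the 42 °C arrays, against 119.6, 125 and 136 on the 37 °C arrays (2.02 ± 0.17). Of 53 genes for metal transport and nicotianamine synthesis 10 rose and 4 fell (median 0.022). NAS2, a nicotianamine synthase gene, rose (6647, 6585 and 7714 at 42 °C, against 2229, 2262 and 2231 at 37 °C; 1.63 ± 0.12), NAS1 read 10647, 10492 and 10869 on the 42 °C arrays, against 6585, 6807 and 6710 on the 37 °C arrays (0.67 ± 0.04, not called), and BHLH063 (-1.19 ± 0.072), Nramp1 (-1.09 ± 0.11) and MTP5 (-1.04 ± 0.1) fell, the last at -0.94 and not called with 64 added.

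Root markers moved with this result. Of 12 root marker genes 3 rose and 0 fell, and they summed to 27841 to 30078 at 42 °C and 12629 to 13065 at 37 °C, against 14365 to 16974 in controls. The 2 lists overlap, since NAS1, NAS2, NAS3 and IRT1 stand in both, and the NAS genes make up most of the sum. The 8 root markers outside the metal list, a split made after the values were seen, summed to 7944 to 8771 at 42 °C and 2446 to 2572 at 37 °C, and 3551 to 4470 in controls. The risers were NAS2 and the silicon transporter genes Lsi1 (5385, 5431 and 6161 at 42 °C, against 1349, 1482 and 1400 at 37 °C; 1.99 ± 0.17) and Lsi2 (949, 1036 and 926 at 42 °C, against 172, 145 and 167 at 37 °C; 2.48 ± 0.18). The median over the 12 was 0.75, and for 8 of them all 42 °C arrays lay above all 37 °C arrays, as they did for 36% of all genes. Against control, 2 of the 12 were higher and 0 lower at 42 °C (median 0.0033, with 3.4% of all genes higher). At 37 °C 0 were higher and 4 lower against control (median -0.16, with 4.75% of all genes lower). Lsi2 read 1072, 1205 and 859 in controls, with -0.094 ± 0.18 at 42 °C (not called) and -2.57 ± 0.18 at 37 °C against control. At the step from 37 °C to 42 °C, the 9 root markers besides the risers were short of a call. NAS3 was at 0.95 ± 0.061, HAK1 at 0.91 ± 0.098, OsSCR1 at 0.83 ± 0.12, NAS1 at 0.67 ± 0.04 and IRT1 at 0.28 ± 0.11, each without overlap. OsCASP1, at 0.24 ± 0.15, and OsGRAS-38, at 0.14 ± 0.071, did overlap. NRT2.2 and NRT2.3 read under 9 on average in both groups. The part of root RNA in the rise of metal transport genes was not tested.

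Some defence genes rose. CYP71Z7, a cytochrome P450 of diterpenoid phytoalexin synthesis, read 322, 318 and 316 on the 42 °C arrays, against 20.02, 29.8 and 20.2 on the 37 °C arrays (3.10 ± 0.28). CPS2, the copalyl diphosphate synthase that makes the precursor, read 124, 132 and 88.0 on the 42 °C arrays, against 6.75, 9.77 and 7.60 on the 37 °C arrays (2.43 ± 0.23). PBZ1, a pathogenesis-related PR10 gene, read 11787, 12370 and 13320 on the 42 °C arrays, against 2352, 2612 and 2614 on the 37 °C arrays (2.30 ± 0.16, adjusted p = 4.7e-08). For each of the 3 the 42 °C arrays lay above both the 37 °C arrays and the controls, which averaged 58.8 for CYP71Z7, 26.6 for CPS2 and 3875 for PBZ1. All 3 are among the 12 largest rises and come from no list.

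In hormone and nitrogen genes, OsRR9, a type-A response regulator that dampens cytokinin signalling, read 1932, 1924 and 1701 on the 42 °C arrays, against 235, 246 and 208 on the 37 °C arrays (2.93 ± 0.079). CKX4, for an enzyme that breaks cytokinin down, fell by 2.46. Of 31 cytokinin genes 2 rose and 4 fell, where 2.75% of all genes rose and 6.39% fell. The second riser, LOGL10, was at 1.06 and at 0.99 without replicate 3 at 42 °C. NIA1, a nitrate reductase gene, read 10149, 10445 and 10005 on the 42 °C arrays, against 2363, 2306 and 2304 on the 37 °C arrays (2.13 ± 0.039), still below its controls at 24536, 24913 and 25622, and its second probe set, at about 5, was not called. The peroxisomal catalase gene CAT-A read 19665, 20976 and 21791 on the 42 °C arrays, against 6278, 6611 and 6984 on the 37 °C arrays (1.65 ± 0.05) and rose on both of its further probe sets, at 1.62 and 2.30. PDX12, at 900.1, 952 and 833 in controls, was low in both heat groups (33.0, 25.4 and 31.1 at 42 °C, against 22.9, 18.4 and 22.8 at 37 °C; 0.29 ± 0.072, not called).

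Of 106 cell division genes 8 rose and 3 fell, with a median of 0.18, where 2.75% of all genes rose and 6.39% fell. PCNA, the sliding clamp of DNA replication, read 2646, 2857 and 2753 on the 42 °C arrays, against 1005, 1034 and 998 on the 37 °C arrays (1.43 ± 0.045), CYCD3-1, a cyclin of entry into division, read 889, 885 and 942 on the 42 °C arrays, against 341, 318 and 314 on the 37 °C arrays (1.44 ± 0.067), and OsRPA70b, for a protein that binds single-stranded DNA, read 676, 588 and 772 on the 42 °C arrays, against 230.5, 237 and 245 on the 37 °C arrays (1.45 ± 0.11). All 3 lay at 42 °C near their controls, with 0.17 ± 0.045, 0.015 ± 0.067 and 0.059 ± 0.11 against control, none called. The falls were in CDKE-1 (-1.42 ± 0.13, at 0.094 on its other probe set), KIN14A (-1.17 ± 0.078) and OsRPA70c (-1.09 ± 0.073, -0.89 with 64 added). All 6 histone genes were higher on every 42 °C array than on any 37 °C array, as were 36% of all genes, but only H2B.10 was called (1116, 1211 and 906 at 42 °C, against 370, 340.5 and 312 at 37 °C; 1.61 ± 0.10). Of 25 cytosolic ribosomal protein genes 0 were called, and their differences ran from -0.045 to 0.51, with all 42 °C arrays above all 37 °C arrays for 22.

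Of 30 expansin and XTH genes, which loosen the wall, 6 rose and 1 fell (median 0.20). EXPA2 read 1947, 1919 and 2117 on the 42 °C arrays, against 585, 628 and 603 on the 37 °C arrays (1.69 ± 0.097), and EXPB6 and EXPB7 rose by 1.61 and 1.53, while EXLA2 fell by 1.05 (-0.94 with 64 added). Of 53 genes for cellulose and lignin synthesis 7 rose and 1 fell. CAD8A, a cinnamyl alcohol dehydrogenase gene of lignin synthesis, read 3189, 3265 and 3738 on the 42 °C arrays, against 1219, 1274 and 1182 on the 37 °C arrays (1.46 ± 0.10), and CSLC9, a cellulose synthase-like gene, fell by 1.62.

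Of 16 genes placed in the light reaction list by symbol 2 rose and 0 fell, namely FNR, for a ferredoxin-NADP reductase, and LIR1 (1.16 ± 0.095). FNR read 6143, 6354 and 6833 on the 42 °C arrays, against 1981, 1969 and 2009 on the 37 °C arrays (1.69 ± 0.053). Its symbol does not tell a leaf form from a root form, and LFNR1, a separate member, was not called. Of 9 genes placed in the Calvin cycle list by symbol 0 rose and 2 fell, both for fructose bisphosphatase: FBPase (-1.36 ± 0.044) and CFBP1 (-1.09 ± 0.072, with its other probe set at -0.82). The symbol pattern does not separate plastid from cytosolic forms, so a member such as CFBP1 may lie outside the cycle. PORA, of chlorophyll synthesis, read 13097, 13676 and 15026 on the 42 °C arrays, against 5791, 6206 and 6035 on the 37 °C arrays (1.21 ± 0.055) and was the only one of 16 chlorophyll genes called. CAB2R was at 0.098 ± 0.038 and the rubisco activase gene OsrcaA1 at -0.38 ± 0.057, neither called.

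The largest rises among genes with only a locus number were LOC4349221, at 1505, 1546 and 1296 at 42 °C, against 128, 134 and 126 at 37 °C (3.33 ± 0.14), and LOC4332422, at 893, 1015 and 1148 at 42 °C, against 79.5, 90.2 and 95.5 at 37 °C (3.30 ± 0.22). Lists in which 0 or 1 gene was called included glutathione S-transferases (0 of 6) and ubiquitin and proteasome genes (1 of 35, the fall of OsUBC5b by 1.61). They also included A20/AN1 proteins (1 of 13, OsSAP17 at -1.17, and -0.89 with 64 added) and actins and tubulins (1 of 14, the fall of TUB7 by 1.08). The other probe set of TUB7 was at -0.94 and was not called. Of 26 ascorbate and glutathione defence genes 1 rose and 1 fell, and of 53 auxin genes 0 rose and 4 fell. Of 50 CCCH proteins 2 rose and 5 fell. Among 10 raffinose and trehalose genes 1 rose and 1 fell, and among 14 ethylene response and DREB genes 1 rose and 4 fell. Over all genes 2.75% rose and 6.39% fell. The ethylene riser EIL1B, at 1.03, was 0.86 with 64 added, and 0.89 to 0.99 without replicate 1 or 2 at 42 °C or replicate 2 or 3 at 37 °C.

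**Figure D4:**
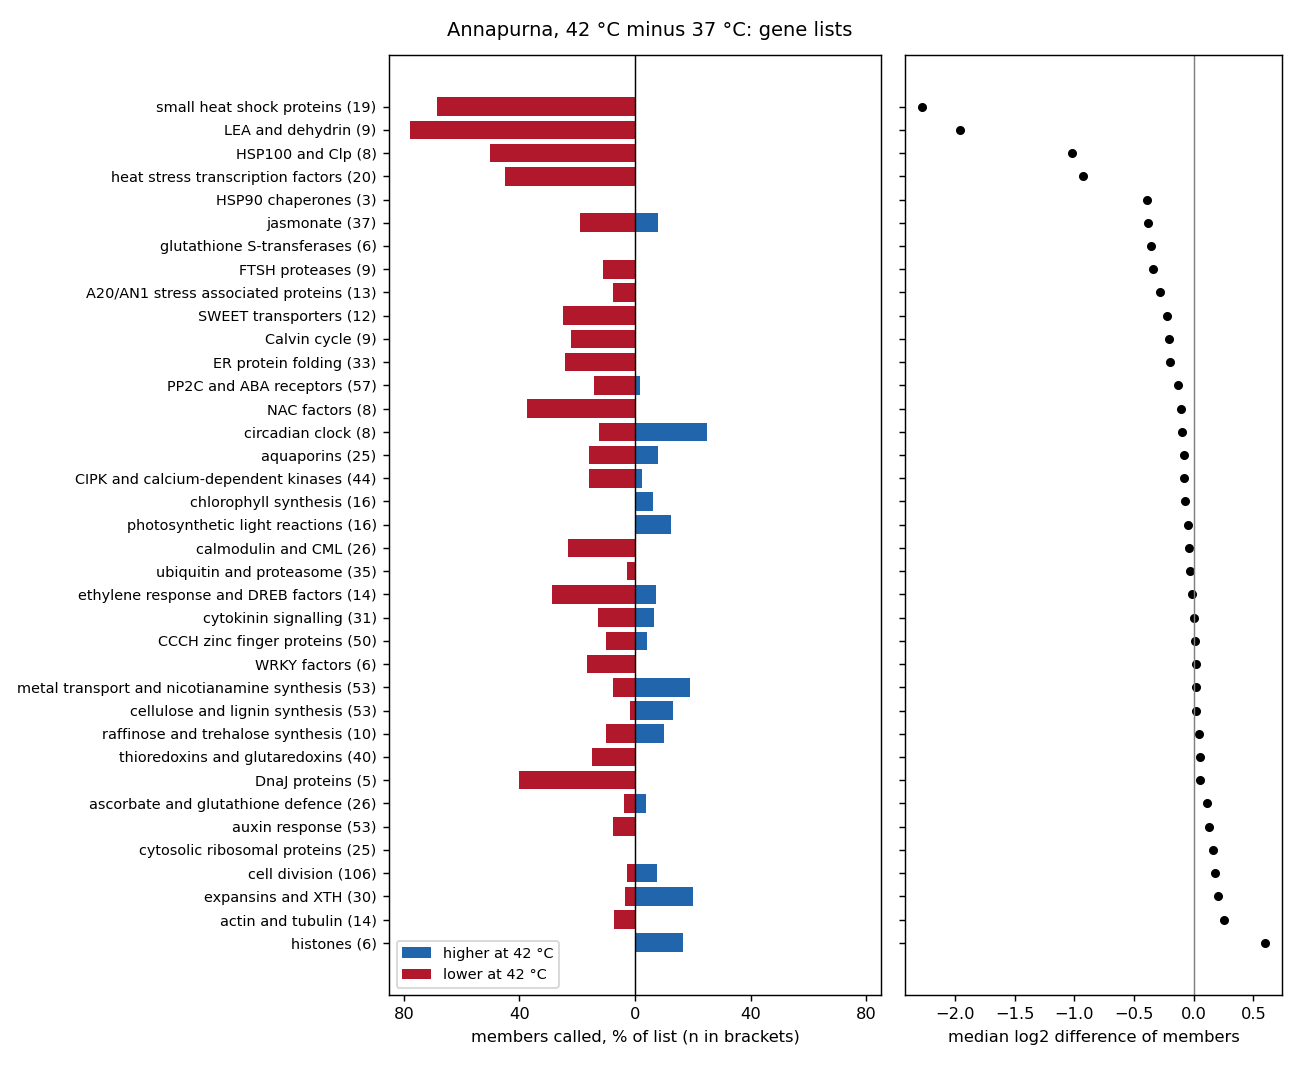
Gene lists in Annapurna, with the number of members in brackets (y axis). Left, the percent of members that rose (to the right of 0) or fell (to the left of 0) at 42 °C against 37 °C; right, the median log2 difference of the members. Small heat shock proteins and LEA and dehydrin genes have the lowest medians, -2.28 and -1.96, against 0.0094 over all genes.

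Set against the 28 °C controls, the same lists had other counts. These comparisons share arrays with the one above, so their values are given side by side and no overlap is drawn from them. Small heat shock proteins were higher in 13 of 19 at 42 °C (median 1.08, with 3.4% of all genes higher) and in 17 of 19 at 37 °C (median 4.80, with 5.56% of all genes higher). Heat stress transcription factors were higher in 1 and lower in 4 of 20 at 42 °C (median -0.39, with 5.5% of all genes lower), and higher in 6 and lower in 1 at 37 °C (median 0.68). LEA and dehydrin genes were higher in 2 and lower in 2 of 9 at 42 °C, and higher in 9 of 9 at 37 °C. Cell division genes were higher in 2 and lower in 1 of 106 at 42 °C, and higher in 4 and lower in 10 at 37 °C (with 4.75% of all genes lower). Metal transport genes were higher in 9 and lower in 2 of 53 at 42 °C, and higher in 3 and lower in 5 at 37 °C.

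The same step was measured in IR64 on 6 other arrays, and the difference of the steps was tested gene by gene. In IR64 2.52% of genes rose and 3.93% fell. The Annapurna step was higher than the IR64 step for 329 genes (1.84%) and lower for 589 (3.29%). Over probe sets these were 553 (0.966%) and 998 (1.74%), and after quantile normalization 710 and 814, so the lean to lower values is smaller on that scaling. Of the LEA and dehydrin genes 7 of 9 fell and 0 rose in Annapurna, while 1 fell and 6 rose in IR64, and the difference was called in 8 of 9. RAB16B read 1962, 2190 and 2306 on the IR64 42 °C arrays, against 991, 1028 and 990.2 on the IR64 37 °C arrays, a rise (1.09 ± 0.082), and the difference of the steps was -4.97 ± 0.12 (adjusted p = 2.2e-12). It rose in IR64 and fell in Annapurna. RAB16C read 2034, 2379 and 2434 on the IR64 42 °C arrays, against 288, 277 and 269 on the IR64 37 °C arrays (2.96 ± 0.17), with a difference of -4.68 ± 0.23. RAB21 read 16297, 19962 and 12037 on the IR64 42 °C arrays, against 3142, 3372 and 3101 on the IR64 37 °C arrays (2.29 ± 0.15), with a difference of -2.89 ± 0.21. Dhn1 was the exception, since it fell in both cultivars (-2.12 ± 0.053 in IR64) and its difference of -0.86 ± 0.076 was short of 2-fold.

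Of the 19 small heat shock protein genes 13 fell in Annapurna and 12 in IR64, and the difference was called in 7, all lower in Annapurna. HSP26.7 read 9191, 9164 and 10603 on the IR64 42 °C arrays, against 8247, 8629 and 8280 on the IR64 37 °C arrays (0.20 ± 0.049, not called), so the cultivars differed by -2.63 ± 0.069 (adjusted p = 8.1e-12). HSP16.9B read 2210, 2059 and 1823 on the IR64 42 °C arrays, against 7557, 7393 and 6724 on the IR64 37 °C arrays (-1.83 ± 0.076), a difference of -3.15 ± 0.11. HSFA2A and CLPB1 fell in IR64 by 6.92 and 3.94, and their differences of -0.75 ± 0.12 and -0.76 ± 0.12 were short of 2-fold. Heat stress transcription factors differed in 5 of 20, all lower in Annapurna, among them HSFB2B (-3.0) and HSFB2A (-2.22 ± 0.14). Outside these lists, ELA3 fell in both cultivars, with -1.09 ± 0.15 in IR64 and a difference of -3.57 ± 0.22. PXG, a peroxygenase gene, fell in Annapurna (-2.44 ± 0.12) and rose in IR64 (1.14 ± 0.12), a difference of -3.58 ± 0.17. OsSWEET15 and OsPP2C59 fell in Annapurna and were not called in IR64, at 0.78 ± 0.12 and -0.20 ± 0.084, with differences of -4.59 ± 0.17 and -3.44 ± 0.12.

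Other differences lay to the higher side in Annapurna. CYP71Z7 read 51.8, 55.3 and 69.4 on the IR64 42 °C arrays, against 33.5, 38.2 and 28.8 on the IR64 37 °C arrays (0.59 ± 0.28, not called), a difference of 2.50 ± 0.40. PBZ1 read 5344, 4932 and 5314 on the IR64 42 °C arrays, against 4585, 4479 and 4151 on the IR64 37 °C arrays (0.24 ± 0.16, not called), a difference of 2.06 ± 0.23. NAS1 fell in IR64 (2118, 2091 and 2183 on the IR64 42 °C arrays, against 6710, 7102 and 6829 on the IR64 37 °C arrays; -1.68 ± 0.04), a difference of 2.35 ± 0.057 (adjusted p = 3.2e-12). OsRR9 differed by 1.99 ± 0.11, the potassium transporter gene HAK17 by 2.07 ± 0.19 and NIA1 by 1.38 ± 0.055. Nrat1, OsPRR95, OsPRR1, PCNA and CCA1 moved alike in direction in both cultivars, with IR64 steps of 3.94 ± 0.089, 2.12 ± 0.094, 2.17 ± 0.088, 1.57 ± 0.045 and -2.89 ± 0.059, and none of their differences was called. Of 106 cell division genes 8 rose and 3 fell in Annapurna, while 12 rose and 0 fell in IR64, and the difference was called in 1. Of 53 metal transport genes 10 rose and 4 fell in Annapurna, while 7 rose and 2 fell in IR64. Their difference was called in 3, all higher in Annapurna. Of 12 root markers 4 rose and 1 fell in IR64, and the difference was called in 2, both higher in Annapurna. The 8 root markers outside the metal list summed in IR64 to 10029 to 11109 at 42 °C and 2104 to 2160 at 37 °C. Of 6 WRKY genes the difference was called in 4, all higher in Annapurna, where 1 fell in Annapurna and 3 in IR64.

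Of 19 grain markers the difference of the steps was called in 2, AMY1.1 and OsTIP3, both lower in Annapurna. AMY1.1, an alpha-amylase gene of germinating grain, read 5.47, 5.47 and 5.49 on the 42 °C arrays, against 5.41, 5.54 and 5.54 on the 37 °C arrays of Annapurna. In IR64 it read 8767, 9204 and 10078 on the IR64 42 °C arrays, against 5.65, 5.65 and 5.62 on the IR64 37 °C arrays. EP3A, a cysteine proteinase gene of germinating grain, read 5.88 to 6.28 on the 6 Annapurna arrays. In IR64 it read 52.3, 45.3 and 41.5 on the IR64 42 °C arrays, against 6.02, 5.98 and 5.996 on the IR64 37 °C arrays. Its difference of the steps, -1.49 ± 0.59, was not called (limma adjusted p = 0.054). The 19 grain markers summed in Annapurna to 3382 to 3736 at 42 °C and 2183 to 2351 at 37 °C, and in IR64 to 12971 to 14597 at 42 °C and 2460 to 2610 at 37 °C, where AMY1.1 made up most of the 42 °C sum. In Annapurna 0 of them rose and 1 fell, AMY1.3 by 2.22, and GLB1, a globulin gene, made up most of the sum at 3122 at 42 °C, against 1656 at 37 °C. In IR64 4 rose and 1 fell: AMY1.3 averaged 93.0 at 42 °C, against 668 at 37 °C (-2.65 ± 0.071), GLB1 averaged 2810 at 42 °C, against 1196 at 37 °C, and OsTIP3 averaged 896 at 42 °C, against 282 at 37 °C. The storage protein genes GLUA1 and prolamin were near the foot of the scale at 42 °C in both cultivars, at 4.13 and 8.68 in Annapurna and 4.12 and 9.38 in IR64. Storage genes were not all so dim. GLUA2 averaged 283 at 42 °C, against 328 at 37 °C, in Annapurna (-0.21 ± 0.077, not called). It averaged 320 at 42 °C, against 252.5 at 37 °C, in IR64 (0.33 ± 0.077, not called). The part of grain RNA in the differences between cultivars was not tested.

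**Figure D5:**
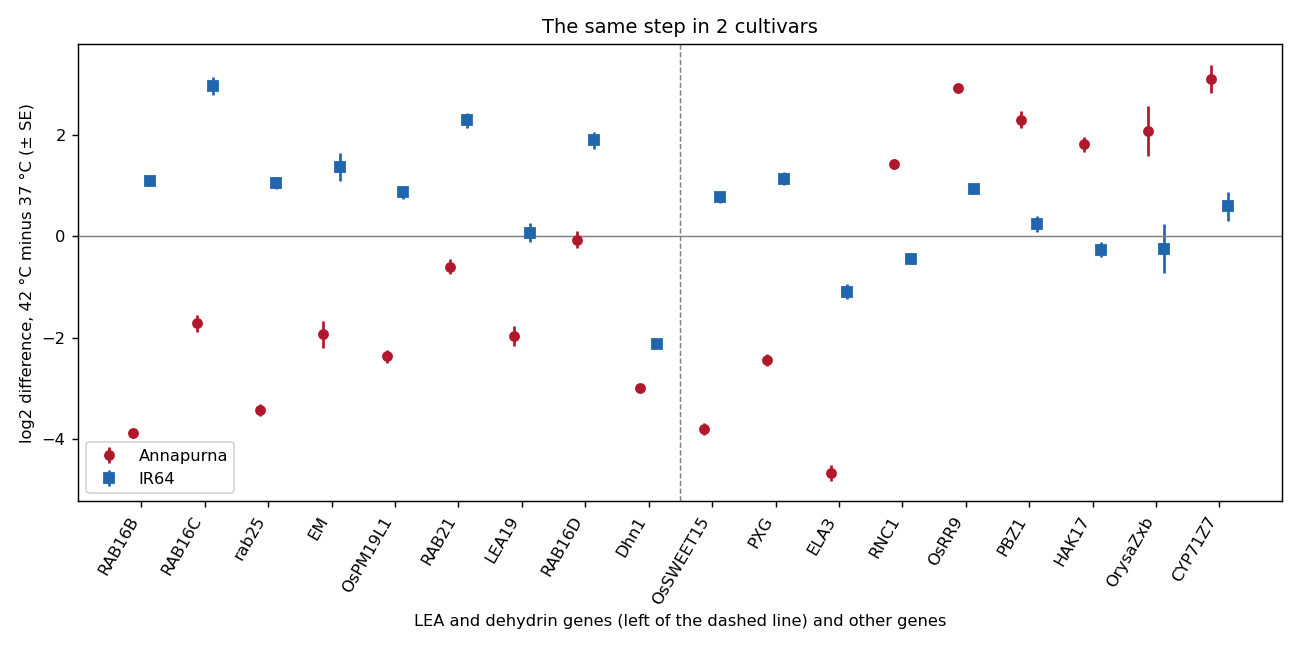
Log2 difference of 42 °C minus 37 °C (y axis, ± SE, n = 3 arrays a group) in Annapurna and IR64 for the 9 LEA and dehydrin genes and for other named genes (x axis). The other genes have the largest differences between the steps among named genes also called in Annapurna, which leaves out AMY1.1 and NAS1. RAB16B lies at -3.88 in Annapurna and 1.09 in IR64, and CYP71Z7 at 3.10 in Annapurna and 0.59 in IR64.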

How the data were processed

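Total RNA of 18 samples (500 ng each) was labelled by 3′ in vitro transcription and hybridised to Affymetrix rice arrays, per the labels' protocols. The deposited values are probe set intensities on a linear scale, made by the authors with GCOS, per the submitters' processing notes; how they were scaled and summarised is not stated in the sources used here. No further normalization was applied, because array medians lay close together. Of 57381 probe sets, 123 control probe sets were left out. GEO's platform annotation gave 1 gene to 22436 probe sets, several to 95 and none to 34727; symbols were updated through a RefSeq gene table (names only). A gene is represented by its brightest probe set, and 2456 of 17905 genes had a name other than a locus number. On log2(intensity + 16), limma 3.58.1 (R 4.3.3) fitted 6 group means over all 18 arrays with a variance trend (12 residual degrees of freedom); tests were two-sided with Benjamini-Hochberg adjustment over 57258 probe sets, and a call needed adjusted p under 0.05 and a difference of at least 2-fold. The 37 °C, 42 °C and control comparisons share arrays. The fit was tested on simulated data. Where nothing shows that replicates came from separate plantings, p-values measure the spread between these samples; the number of arrays limits the precision.

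The comparison, the gene lists and the named genes were chosen with earlier results of these data known. Lists are patterns on gene symbols and synonyms, and they are described by counts and medians with no list test. Named genes are the 12 largest called rises and falls without overlap, the 3 largest called members each way and the brightest uncalled member of each list, a set of heat, clock and cold genes taken whatever their result, the 2 largest each way among locus numbers, and the 6 largest each way of the cultivar difference among named genes also called in Annapurna. Further members of the small heat shock, HSP100, heat stress factor, ER folding, LEA and marker lists, and controls of array quality, were named after their values were seen. The planned search for promoter motifs was not run, since no sequence was used here. Alternatives were the amount added, quantile normalization, a filter, the variance trend, the replicate number as a block, a fit on 6 arrays, the mean of a gene's probe sets and leaving out each array.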

Additional observations from a re-analysis of the deposited data

Results flagged for a closer look

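These are differences of the step, as the Annapurna log2 difference of 42 °C minus 37 °C less the same in IR64, singled out because the limma test of the difference itself passed with at least a 2-fold size. They are given as values, and causes were not tested. The Annapurna step was lower for RAB16B -4.97, RAB16C -4.68, OsSWEET15 -4.59, rab25 -4.47, PXG -3.58, ELA3 -3.57, OsPP2C59 -3.44, LOC4331521 -3.41 and HSP16.9B -3.15. It was also lower for LOC4343997 -3.12, FTSH6 -3.11, HSFB2B -3.0, RAB21 -2.89, HSP26.7 -2.63, PP2C30 -2.22, HSFB2A -2.22, CKX4 -2.02 and OsC3H35 -1.97. Smaller differences to the same side were HOX24 -1.90, CLPD1 -1.86, OsNrx2 -1.77, HSFA2C -1.68, PP2C68 -1.55, HSP17.8 -1.54, PDC1 -1.30, GRXC1 -1.28, CIPK5 -1.25, HSP17.7 -1.10 and OsC3H37 -1.09.

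The Annapurna step was higher for LOC4332422 2.81, CYP71Z7 2.50, NAS1 2.35, OrysaZxb 2.32, HAK17 2.07, PBZ1 2.06, OsRR9 1.99, RNC1 1.88 and LOC4349221 1.84. It was also higher for BIP4 1.83, CPS2 1.81, OsPIP2;7 1.58, NAS2 1.48, EXPA2 1.46, NIA1 1.38 and CML16 1.23.

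Several calls of a difference rest on 1 array or on the amount added. With 64 added, the difference was 0.96 for CAD8C (1.0), 0.86 for OsWRKY71 (1.09), 0.78 for PDX12 (1.72), -0.92 for DREB1G (-1.60) and -0.96 for OsRPA70c (-1.19). It was -0.97 for BZIP60 (-1.08) after quantile normalization. The call of JAMYB (-1.13) was lost without replicate 1 of Annapurna at 37 °C. The call of EIL1B (1.02) was lost with 64 added, at 0.86, and without replicate 1 or 2 of Annapurna at 42 °C, 2 or 3 of Annapurna at 37 °C or 2 or 3 of IR64 at 42 °C, at 0.88 to 0.98. The call of CAD8C was lost without replicate 2 of Annapurna at 42 °C, 2 or 3 of Annapurna at 37 °C, 1 or 3 of IR64 at 42 °C or 1 of IR64 at 37 °C, the lowest value being 0.93.

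AMY1.1, the alpha-amylase gene of germinating grain, had the largest of these differences, -8.76 ± 1.68 (adjusted p = 0.002), and the change lay in IR64, since the Annapurna 42 °C and 37 °C arrays read 5.41 to 5.54. Its SE is wide because the model pools the spread of all 6 groups. The Annapurna controls, at 5.49, 5.48 and 124, are part of that spread. The IR64 controls also enter it, and their values are not given here.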

How the results depend on the processing

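None of the values computed under these alternatives changed direction where called. Probe sets higher at 42 °C in Annapurna numbered 475 with 64 added, 8037 without a fold threshold and 493 over genes, against 803, and 791 to 830 with 1 array left out. Lower probe sets numbered 6424 without a fold threshold and 1144 over genes, against 1769, and 1739 to 1793 with 1 array left out. The Annapurna step was higher than the IR64 step for 331 probe sets and lower for 613 with 64 added, against 553 and 998, and for 529 to 615 and 971 to 1035 with 1 array left out. Fewer calls with 64 added follow from its shrinking of dim differences. List members called numbered 51 higher and 121 lower, and 50 to 53 and 117 to 121 with 1 array left out. They numbered 36 and 98 with 64 added, 61 and 130 with 1 added, and 48 and 111 with the mean of a gene's probe sets. Of 3273 values of 177 named genes compared, 3227 kept their direction and call; 23 lost the call with 64 added, 1 with quantile normalization (the difference of BZIP60, at -0.97), and 0 to 4 with each array left out.

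Deviations of same-numbered arrays at 42 °C and 37 °C had r = 0.2, -0.134 and -0.00336 across probe sets, and those of differently numbered arrays ran from -0.212 to 0.207. The numbers therefore showed no sign of pairing the samples, but 3 arrays a group cannot exclude a pairing. With the replicate number as a block, 799 probe sets were higher and 1768 lower, the difference of the steps had 553 higher and 990 lower, list members numbered 51 and 121, and no named gene lost its call. No detection calls were used, so differences from levels near the foot of the scale rest on the amount added.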
